A study of Mus musculus with 8 samples.

Results

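Expression of 10 genes of the amino acid stress response governed by the transcription factor Atf4 was examined in 8 mouse Myc-CaP tumors. The genes were chosen by name, with earlier results of these data known, and were Atf4, Ddit3, Asns, Phgdh, Psat1, Shmt2, Mthfd2, Trib3, Chac1 and Sesn2, which made up 10 of the 38115 genes listed in the count tables. All 10 passed the filter on low counts in every comparison.

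Myc-CaP is a mouse prostate cancer cell line that carries a Myc transgene. Androgen sensitive (AS) or castrate resistant (CR) Myc-CaP cells were placed in the anterior prostate lobes of male FVB mice that were intact or surgically castrated beforehand, and RNA was sequenced from primary tumors and from metastases. There were 2 tumors in each of 4 groups: primary AS, metastatic AS, primary CR and metastatic CR. They are called AS1, AS2, CR1 and CR2 within each tumor type, and these numbers pair nothing, since the labels call the metastases matched without saying which primary tumor each one matches. The ages of the mice, the site of each metastasis and which cells went into which mice are not given in the labels. All tumors came from the transplanted cells, with 1 line for each phenotype, so a phenotype cannot be told apart from its line or its host. Nothing in the labels says that the tumors of a group came from separate mice, and p-values measure the spread between these tumors only.

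Total counts ranged from 20905806 to 91886163 per tumor, with the smallest totals in metastatic CR2 and primary CR2. Of the prostate epithelial markers, Krt8 lay between 36.4 and 710 CPM, whereas Krt18, Epcam, Cdh1 and Pbsn were each below 1 CPM (counts scaled to one common total) in every tumor. Markers of lung summed to between 0.292 and 0.842 CPM, those of lymph node stroma to between 0.117 and 1.23 CPM and those of lymphocytes to between 0.526 and 1.84 CPM. These are bulk tumors, in which fewer cells of a type and less RNA per cell cannot be told apart.

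When amino acids run short or misfolded proteins collect in the endoplasmic reticulum (ER), kinases phosphorylate the translation factor eIF2α. General protein synthesis then slows while the Atf4 mRNA is translated more, so that Atf4 protein can increase with little change of its mRNA. Atf4 binds C/EBP-ATF response elements, often as a heterodimer with C/EBP proteins, and activates genes for amino acid synthesis, amino acid transport, tRNA charging and, if the stress lasts, cell death. Tumor cells with high Myc activity are known to draw on these functions to sustain protein synthesis.

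Promoters of the 10 genes were searched for the response element, since it is the feature through which Atf4 acts on its targets. RefSeq windows of 250 bases before to 50 bases after the start site (build GRCm38.p6) were found for all 10. The element, searched as TGATGNAAN on both strands, was present in 3 of the 10 genes (Asns, Chac1 and Trib3), or 30%. The share was 4.5% over all 27025 genes with a window. Of the 55 other pathway genes listed for comparison, 43 had a window and 15 of these held the element, or 34.9%. An E-box of the kind bound by Myc, CACGTG, which reads the same on both strands, was found in 0 of the 10 genes. It was found in 9 of the 43 other pathway genes, or 20.9%, and in 8.09% of all genes with a window. In Trib3 the match lay 13 to 21 bases after the RefSeq start site. The gene coordinates given below are from GENCODE, whose start sites differ. By these, the Trib3 match lies just before the Trib3 gene and the Asns match lies inside the Asns gene. The matches of Asns and Chac1 are given here in the direction of the gene, with the element in capitals. The Asns stretch lies at chr6:7693210-7693257 on the minus strand and ends just before the RefSeq start site. The Chac1 stretch lies at chr2:119351023-119351081 on the plus strand. In Chac1 the element is on the other strand, so that the capitals are its reverse complement.
Asns: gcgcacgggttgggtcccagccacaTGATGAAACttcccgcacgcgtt
Chac1: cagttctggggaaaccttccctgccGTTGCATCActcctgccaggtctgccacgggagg
A match describes the letters of the sequence only. Asns, Chac1 and Trib3 were also the 3 genes with the highest ratio of the highest to the lowest tumor, 5.85, 6.69 and 12.9 in normalized counts. A link between the element and this ratio was not tested. The lowest tumor of Chac1 and Trib3, primary CR2, had only 36 and 16 raw counts of them.

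Metastatic tumors were compared with primary tumors first. The paper counts fewer primary tumors than the 4 used here and does not name them, and it used DESeq, so the fit differs from the study's. None of the 10 genes passed the test, and the tumors of 1 group, primary CR, lay far apart in most of them. By edgeR's quasi-likelihood test 0 of the 10 genes had an adjusted p under 0.05, where 0% of the 17104 genes tested were called, and 0 had an unadjusted p under 0.05, against 2.68% of all genes. The result over all genes depends on the tool and on 1 tumor, since DESeq2 without primary CR1 called 180 of 17393 genes (1.03%), and 0 of the 10. Their median log2 fold change was -0.12, against -0.03 over all genes tested, and it was 0.31 without primary CR1. In 0 of the 10 genes did the 4 metastatic tumors lie apart from the 4 primary ones, against 1.7% of genes. Castrate resistant tumors were then compared with androgen sensitive tumors with tumor type as a term. Here too 0 of the 10 genes had an adjusted p under 0.05, although 10.1% of the 18889 genes tested were called. Asns and Trib3 were higher and Ddit3 lower at an unadjusted p under 0.05, which is 3 of 10 genes against 27.1% of all genes. The median log2 fold change of the 10 genes was 0.32, against -0.0004 over all genes, and it was -0.14 without primary CR1. The groups did not overlap for Phgdh and Ddit3, or 2 of 10 genes, against 17.7% of all genes.

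**Figure D1:**
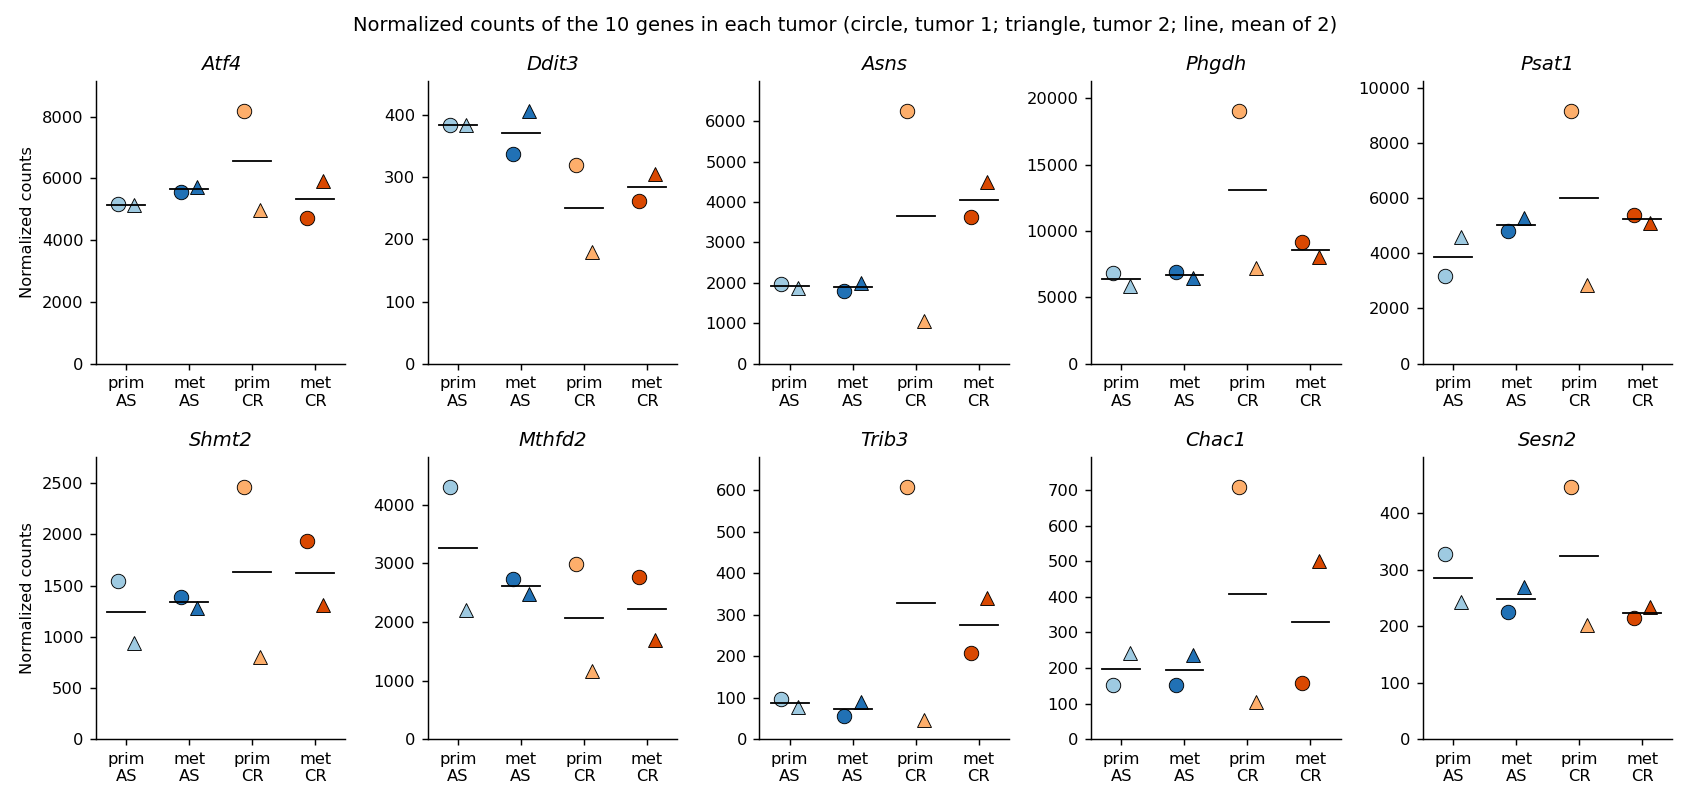
Normalized counts of each gene (y axis, from 0) in the 4 groups (x axis). Each point is a tumor, circles for tumor 1 and triangles for tumor 2, and the line is the mean of 2 tumors. Primary CR1 is the highest of the 8 tumors in 8 of the 10 genes and primary CR2 the lowest in 8.

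Among the transcription factors, Atf4 was nearly level across the tumors and Ddit3 was lower in every CR tumor. Atf4 (ENSMUSG00000042406, chr15:80255184-80257541, plus strand, mm10) is the activator that gives the response its name. Its normalized count, that is the count scaled to a common effective library size, was 5167 and 5141 in primary AS tumors, 5571 and 5722 in metastatic AS tumors, 8174 and 4982 in primary CR tumors and 4730 and 5923 in metastatic CR tumors. Primary CR1 stood above the other tumors, which lay close together. The log2 difference of CR from AS tumors was 0.11 ± 0.20 (SE; adjusted p = 0.765, edgeR's quasi-likelihood test), and that of metastatic from primary tumors was -0.10 ± 0.21 (adjusted p = 0.997). Without primary CR1 the difference of CR from AS tumors was -0.15. Ddit3 (ENSMUSG00000025408, chr10:127290774-127296288, plus strand), also called Chop, encodes a partner of Atf4 linked to cell death under ER stress. Normalized counts of Ddit3 were 383 and 384 in primary AS tumors, 337 and 406 in metastatic AS tumors, 320 and 179 in primary CR tumors and 262 and 305 in metastatic CR tumors. All 4 CR tumors lay below all 4 AS tumors, with a mean of 267 ± 63.2 against 378 ± 28.8 (SD, n = 4 each). An exact two-sided permutation test gave p = 0.0286, the smallest that 4 against 4 tumors can give. The log2 difference was -0.52 ± 0.23, with an adjusted p of 0.180 by edgeR's quasi-likelihood test. Without primary CR1 it was -0.73, with an adjusted p of 0.0477 by the same test, where 18% of all genes were called. Of the exon bases of Ddit3, 6.13% overlap another protein-coding entry of the same name on the same strand, and 3.97% overlap the gene Mars on the opposite strand.

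Of the 3 asparagine and serine synthesis genes 0 passed the test between CR and AS tumors, and primary CR1 held the highest value of all 8 tumors in each of them. Asns (ENSMUSG00000029752, chr6:7675169-7693254, minus strand) encodes asparagine synthetase. Its normalized count was 1979 and 1871 in primary AS tumors and 1795 and 2006 in metastatic AS tumors, a narrow band. In CR tumors it was 6242 and 1067 in the primary and 3617 and 4493 in the metastatic group. Hence 3 of 4 CR tumors lay above every AS tumor and the remaining one, primary CR2, lay below every AS tumor. The mean was 3855 ± 2155 in CR and 1913 ± 98.1 in AS tumors (SD, n = 4 each). With all 8 tumors the log2 difference was 0.99 ± 0.43 (adjusted p = 0.175, edgeR's quasi-likelihood test), and the exact two-sided permutation p was 0.171. Without primary CR2 the log2 difference of Asns was 1.32 with an adjusted p of 0.0120 by the same test. That fit called 4.13% of all genes. Without primary CR1 the log2 difference of Asns was 0.32 with an adjusted p of 0.570.

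Phgdh (ENSMUSG00000053398, chr3:98313170-98339990, minus strand) encodes phosphoglycerate dehydrogenase, which diverts a glycolytic intermediate into serine. Normalized counts were 6845 and 5866 in primary AS, 6927 and 6464 in metastatic AS, 19009 and 7184 in primary CR and 9138 and 8034 in metastatic CR tumors. Every CR tumor exceeded every AS tumor (exact two-sided permutation p = 0.0286, the smallest possible), and the log2 difference was 0.68 ± 0.30, which missed the threshold (adjusted p = 0.185, edgeR's quasi-likelihood test). Without primary CR1 it was 0.21, with an adjusted p of 0.365. The count of Phgdh is uncertain, because 77.6% of the 1793 read-length windows along its transcript matched other annotated genes with up to 2 mismatches and 37.0% matched them exactly. Of these other genes, 7 pseudogenes had counts, and their summed normalized count was 2373 and 2146 in primary AS, 2664 and 2322 in metastatic AS, 7442 and 2657 in primary CR and 3274 and 2861 in metastatic CR tumors. The order of the tumors was thus much like that of Phgdh itself.

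Psat1 (ENSMUSG00000024640, chr19:15904678-15947337, minus strand) encodes phosphoserine aminotransferase, the next enzyme of the pathway. It was counted at 3183 and 4574 in primary AS, 4789 and 5283 in metastatic AS, 9138 and 2860 in primary CR and 5385 and 5104 in metastatic CR tumors. The metastatic tumors of both phenotypes lay between 4789 and 5385, and the primary CR tumors were the highest and the lowest of all 8. The log2 difference of CR from AS tumors was 0.33 ± 0.33 (adjusted p = 0.572, edgeR's quasi-likelihood test), and without primary CR1 it was -0.21.

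**Figure D2:**
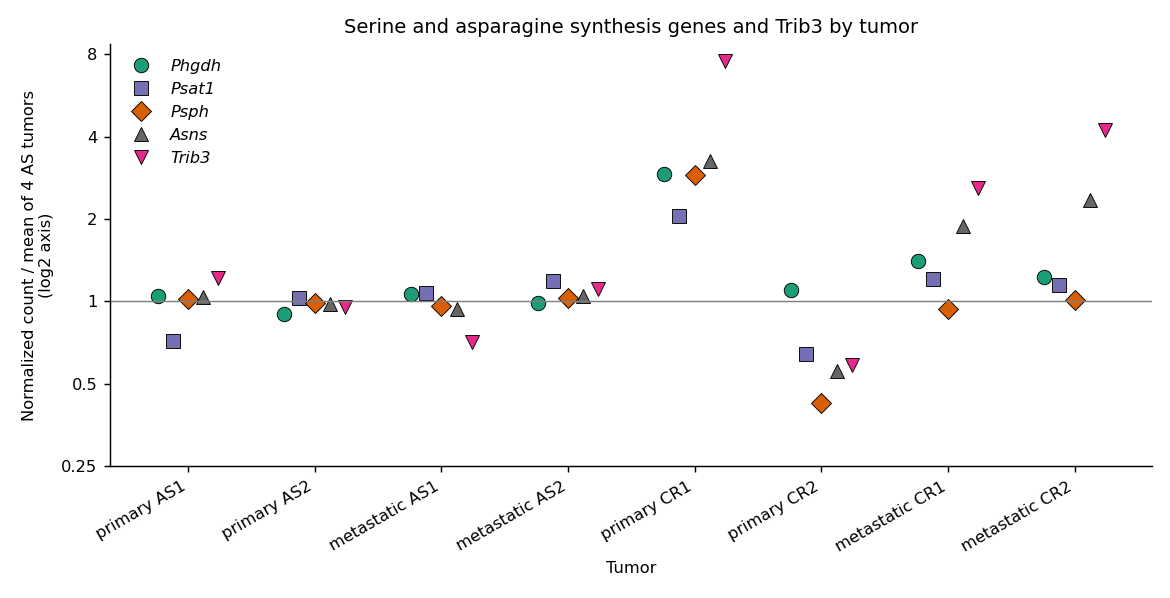
Normalized count relative to the mean of the 4 AS tumors (y axis, log2 scale) in each tumor (x axis) for 5 genes, with 1 symbol per gene and tumor; symbols are shifted sideways so that they do not hide each other. AS tumors lie near 1, primary CR1 lies highest and primary CR2 lies below 1 for every gene but Phgdh. Both metastatic CR tumors lie above 1 for every gene but Psph.

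Mitochondrial one-carbon enzymes showed no common direction between the phenotypes. Shmt2 (ENSMUSG00000025403, chr10:127517123-127522444, minus strand) encodes the mitochondrial serine hydroxymethyltransferase, which splits serine into glycine and a folate-bound carbon unit. Its normalized count was 1546 and 945 in primary AS, 1390 and 1283 in metastatic AS, 2462 and 805 in primary CR and 1936 and 1311 in metastatic CR tumors. The phenotypes overlapped, and the log2 difference of CR from AS tumors was 0.32 ± 0.33 (adjusted p = 0.576, edgeR's quasi-likelihood test) and -0.13 without primary CR1. Mthfd2 (ENSMUSG00000005667, chr6:83305691-83325908, minus strand), which encodes the next enzyme of the mitochondrial folate pathway, was counted at 4300 and 2207 in primary AS and 2732 and 2480 in metastatic AS tumors. In CR tumors it was counted at 2984 and 1161 in the primary and 2760 and 1694 in the metastatic group. This was 1 of the 2 genes whose highest value was not in primary CR1, and 2 of the 4 CR tumors lay below every AS tumor. The log2 difference was -0.45 ± 0.33 (adjusted p = 0.414, edgeR's quasi-likelihood test) and -0.77 without primary CR1.

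The feedback and stress effectors Trib3 and Chac1 varied most between tumors. Trib3 (ENSMUSG00000032715, chr2:152337422-152344032, minus strand) encodes a pseudokinase that restrains Atf4 activity. Trib3 was counted at 98.4 and 77.0 in primary AS, 57.1 and 89.5 in metastatic AS, 607 and 47.0 in primary CR and 208 and 340 in metastatic CR tumors. As with Asns, 3 of 4 CR tumors were above every AS tumor and primary CR2 was below every one. Its raw counts ranged from 16 in primary CR2 to 845 in primary CR1. The mean was 301 ± 237 in CR and 80.5 ± 17.9 in AS tumors (SD, n = 4 each). The log2 difference of 1.89 ± 0.61 was the largest of the 10 genes (adjusted p = 0.0824, edgeR's quasi-likelihood test). By exact two-sided permutation, p was 0.143 for Trib3. DESeq2, which called 18.6% of all genes, gave an adjusted p of 0.00911 for Trib3. EdgeR without primary CR2, which called 4.13%, gave a log2 difference of 2.25 with an adjusted p of 0.0120. Without primary CR1 the log2 difference of Trib3 was 0.93 with an adjusted p of 0.289.

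Chac1 (ENSMUSG00000027313, chr2:119351229-119354381, plus strand) encodes an enzyme that degrades glutathione. Chac1 was counted at 152 and 241 in primary AS, 153 and 237 in metastatic AS, 708 and 106 in primary CR and 158 and 499 in metastatic CR tumors. Primary CR1 and metastatic CR2 were above every AS tumor, and metastatic CR1 lay among them. The log2 difference was 0.89 ± 0.55 (adjusted p = 0.336, edgeR's quasi-likelihood test), and without primary CR1 it was 0.08. Sesn2 (ENSMUSG00000028893, chr4:132492032-132510501, minus strand) encodes a leucine sensor that restrains mTORC1. It was counted at 327 and 243 in primary AS, 225 and 270 in metastatic AS, 446 and 203 in primary CR and 215 and 233 in metastatic CR tumors. Primary CR1 was above the AS range of Sesn2, primary CR2 and metastatic CR1 were below it and metastatic CR2 was within it, and the log2 difference was 0.01 ± 0.28 (adjusted p = 0.989) and -0.36 without primary CR1.

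**Figure D3:**
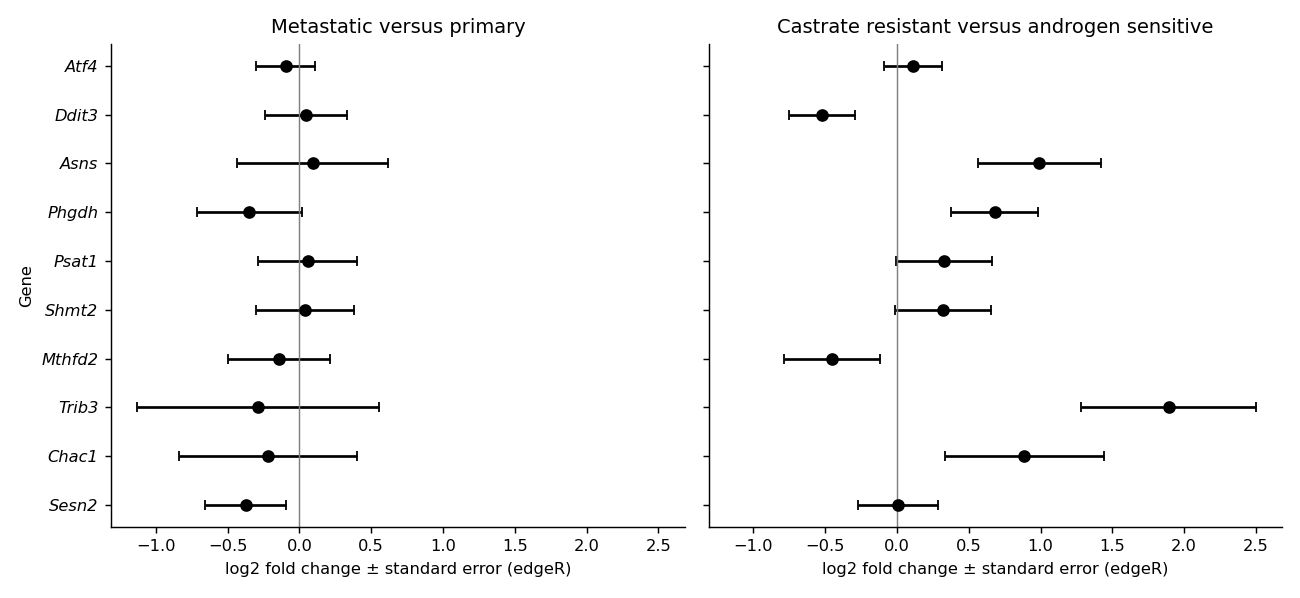
Log2 fold changes of the 10 genes (points) with their standard errors (bars) from edgeR, metastatic versus primary on the left and castrate resistant versus androgen sensitive on the right. No gene passed an adjusted p of 0.05 in either panel, and the largest value was that of Trib3, 1.89, in the panel on the right.

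Between metastatic and primary tumors, log2 differences of the 10 genes ranged from -0.37 ± 0.28 for Sesn2 and -0.35 ± 0.37 for Phgdh to 0.09 ± 0.53 for Asns. Trib3 had the widest error, -0.29 ± 0.84, and primary CR1 and primary CR2 held its highest and lowest values. Exact two-sided permutation tests of log2(CPM + 1) gave p from 0.314 to 1 over the 10 genes, where 0.0286 is the smallest p possible. The direction of 4 genes in this comparison turned when primary CR1 was left out, and the log2 difference was then 0.10 for Atf4, 0.20 for Phgdh, 0.63 for Chac1 and 1.19 for Trib3.

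Whether the difference between metastatic and primary tumors depended on the phenotype was asked with an interaction term. The term was called for 0 of the 10 genes and for 0% of the 18889 genes tested, and its largest estimate among the 10 was -0.72 ± 0.59 for Phgdh (adjusted p = 0.964, edgeR's quasi-likelihood test). Within AS tumors and within CR tumors, metastatic and primary tumors differed for 0 of the 10 genes, against 0% of all genes in each case. CR and AS tumors differed for 0 of the 10 genes within primary tumors, against 0.296% of all genes, and for 0 of the 10 within metastatic tumors, against 0.36%. Trib3 gave a log2 difference of CR from AS tumors of 1.93 ± 0.91 within primary and 1.85 ± 0.92 within metastatic tumors, and Asns gave 0.93 ± 0.64 and 1.05 ± 0.64. For Phgdh it was 1.04 ± 0.42 within primary and 0.32 ± 0.41 within metastatic tumors.

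The widest contrast in these genes was between the tumors of 1 group. Primary CR1 was the highest of all 8 tumors in 8 of the 10 genes, where 17.5% of genes were highest in that tumor, and the exceptions were Ddit3 and Mthfd2. Primary CR2 was the lowest of all 8 tumors in 8 of the 10 genes, where 14.8% of genes were lowest in it, and the exceptions were Atf4 and Phgdh. These tumors were singled out after their values were seen. All 10 genes were higher in primary CR1 than in primary CR2, against 50.9% of all genes, and the median ratio was 2.85 against 1.02 over all genes. The ratio was 12.9 for Trib3, 6.69 for Chac1 and 5.85 for Asns, and 1.64 for Atf4 itself. The spread between tumors on the log2 scale was wider in CR than in AS tumors for 10 of 10 genes, as it was for 76.2% of all genes. For Asns the SD was 1.08 in CR and 0.07 in AS tumors (n = 4 each).

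**Figure D4:**
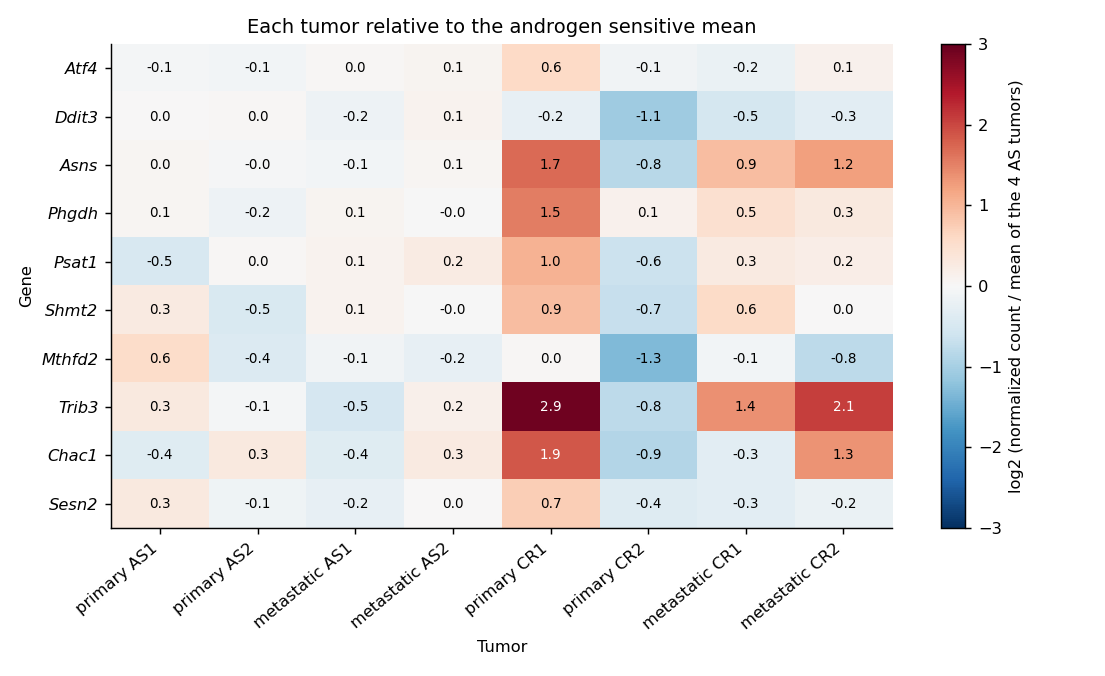
Log2 ratio of each tumor's normalized count to the mean of the 4 AS tumors, for the 10 genes (rows) in the 8 tumors (columns), with the value printed in each cell. Red is higher and blue is lower. Primary CR1 is red in most rows and primary CR2 is blue in most rows. Trib3, Asns, Phgdh and Psat1 are red in both metastatic CR tumors, and Shmt2 is at 0.02 in metastatic CR2.

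Markers of cell division moved with this contrast. The summed level of 10 proliferation genes was 376 CPM in primary CR1 and 93.9 CPM in primary CR2, all 10 were higher in primary CR1, and their median ratio was 4.54. By group the sum ranged from 93.9 to 376 CPM in primary, 239 to 407 CPM in metastatic, 98.1 to 353 CPM in AS and 93.9 to 407 CPM in CR tumors. In this sum metastatic AS tumors were at 353 and 290 CPM and primary AS tumors at 137 and 98.1 CPM. Fibroblast markers (5 of 6 higher in primary CR1) summed to 107 CPM in primary CR1 and 85.8 CPM in primary CR2, and macrophage markers (2 of 6 higher) to 487 and 537 CPM. Skeletal muscle markers (3 of 4 higher) were at a low level. Their sum was highest of all 8 tumors in primary CR1, at 14.5 CPM, followed by metastatic AS1 at 14.2 CPM. It was lowest in primary CR2, at 0.743 CPM. Acta1 made up most of the sum in primary CR1, where Tnnt3 was at 0.46 CPM. In metastatic AS1 most of it was Tnnt3, and Acta1 was at 0.823 CPM. The high sums thus rest on different genes, and the presence of muscle tissue was not tested. The part of proliferation or of these other cells in the values of the 10 genes was not tested.

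On a scale that also divides by exon length (RPKM), the order of the medians over 8 tumors was Phgdh 47.8, Atf4 38.4, Psat1 19.6, Mthfd2 12.6, Asns 12.3, Shmt2 7.32, Ddit3 3.23, Chac1 2.03, Sesn2 1.15 and Trib3 0.75. Ranges over the tumors overlapped between each gene and the next in this order, except that the lowest Shmt2 level, 4.37 RPKM, was above the highest Ddit3 level, 3.99 RPKM. The level of Phgdh, for instance, ran from 39.8 to 129 RPKM and that of Atf4 from 33.8 to 58.4 RPKM. Serine synthesis genes and Atf4 itself were thus the most abundant, and the feedback genes Trib3 and Sesn2 the least.

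Over the 8 tumors, log2(CPM + 1) of the 10 genes was positively correlated in 44 of the 45 pairs, with a median Pearson r of 0.667. These points share primary CR1, and without it the median r was 0.289. Asns and Trib3 were the closest pair, with r = 0.970, and 0.957 without primary CR1. Ddit3 and Phgdh were the only pair with a negative r over all 8 tumors, -0.165, and without primary CR1 9 of the 45 pairs were negative. The 3 genes of all 17094 others whose pattern was most like the mean of the 10 were Psph (r = 0.980), Ptgr1 (r = 0.974) and Mob1a (r = 0.969). Psph encodes phosphoserine phosphatase, the last enzyme of serine synthesis after Phgdh and Psat1. Its normalized count was 785 and 756 in primary AS, 737 and 792 in metastatic AS, 2220 and 326 in primary CR and 722 and 777 in metastatic CR tumors. All tumors but the primary CR pair thus lay within a narrow band for Psph. The tRNA synthetase genes Aars and Yars ranked 10 and 14 in this likeness.

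The 55 other genes of the pathway were read from the same fits, in 6 lists. Between metastatic and primary tumors 0 of the 52 tested were called, and the median log2 difference was -0.01. Vldlr, a lipoprotein receptor gene, had the smallest p among those higher in metastatic tumors (1.06 ± 0.46, adjusted p = 0.997, edgeR's quasi-likelihood test), followed by the eIF2α kinase gene Eif2ak2 at 0.34 ± 0.17. Among those lower, the ER stress kinase gene Eif2ak3 was at -0.41 ± 0.19 and the leucine transporter gene Slc7a5 at -0.48 ± 0.24, with an adjusted p of 0.997 for each. Slc7a3, Fgf21 and Gdf15 did not pass the filter on low counts here.

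Between CR and AS tumors 3 of the 55 pathway genes rose and 2 fell, or 5 of 55 against 10.1% of all genes, and the median log2 difference was 0.28. Pycr1, which encodes an enzyme of proline synthesis, rose in CR tumors by 1.28 ± 0.24 on the log2 scale (adjusted p = 0.0170, edgeR's quasi-likelihood test). Its normalized count was 114 and 139 in primary AS, 140 and 109 in metastatic AS, 310 and 315 in primary CR and 222 and 395 in metastatic CR tumors, and primary CR1 and CR2 were alike, in contrast with the 10 genes above. Aldh1l2, a mitochondrial folate enzyme gene, rose by 2.36 ± 0.61 (adjusted p = 0.0417). It was counted at 225 and 213 in primary AS, 195 and 138 in metastatic AS, 1412 and 126 in primary CR and 1388 and 1150 in metastatic CR tumors. Primary CR2 again lay below every AS tumor for Aldh1l2, as it did for Asns and Trib3. Fgf21, a secreted stress hormone gene, was called as higher (adjusted p = 0.0378) on low counts: raw counts were 0, 0, 0 and 6 in AS tumors and 97, 0, 25 and 14 in CR tumors, where 0 was in primary CR2. When any 1 of the 4 AS tumors was left out, the call of Pycr1 was lost, with adjusted p up to 0.0747. The calls of Aldh1l2 and Fgf21 were lost when any tumor other than primary CR2 was left out, with adjusted p up to 0.143 and 0.110.

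Got1 and Herpud1 were lower in each CR tumor than in each AS tumor. Got1, which encodes cytosolic aspartate aminotransferase, was counted at 5952 and 4310 in primary AS, 3788 and 4560 in metastatic AS, 1878 and 1314 in primary CR and 1336 and 1070 in metastatic CR tumors. It fell by 1.76 on the log2 scale in CR tumors (SE 0.19, adjusted p = 0.00282, edgeR's quasi-likelihood test). Herpud1, a gene of ER-associated degradation, was counted at 9092 and 9190 in primary AS, 6870 and 5531 in metastatic AS, 4873 and 3683 in primary CR and 3300 and 3244 in metastatic CR tumors. It fell by 1.03 in CR tumors (SE 0.16, adjusted p = 0.00907). Both calls held with each of the 8 tumors left out in turn.

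**Figure D5:**
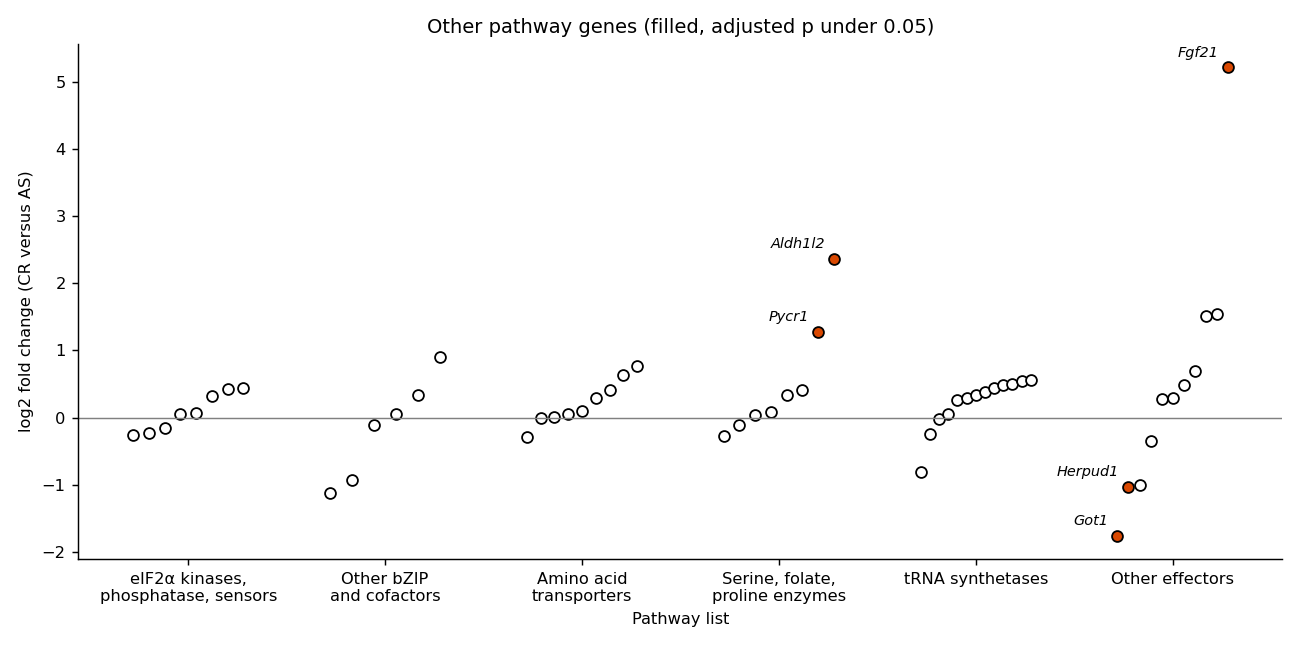
Log2 fold change of castrate resistant versus androgen sensitive tumors (y axis) for the 55 other pathway genes, in 6 lists (x axis). Each circle is a gene, and filled circles have an adjusted p under 0.05. The 5 filled circles are Pycr1, Aldh1l2 and Fgf21 above 0 and Got1 and Herpud1 below 0.

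By list, 0 of the 8 eIF2α kinase, phosphatase and sensor genes and 0 of 6 other bZIP and cofactor genes were called between CR and AS tumors. The count was also 0 of 9 for amino acid transporter genes and 0 of 13 for the tRNA synthetase list, which includes the tRNA exporter gene Xpot. Of 8 serine, glycine, folate and proline enzyme genes, 2 rose, and of 11 other effectors, 1 rose and 2 fell. The difference between the primary CR tumors was seen in some lists and not in others. In 13 of 13 genes of the tRNA synthetase list primary CR1 was higher than primary CR2 (median ratio 2.07). It was also higher in 7 of 8 serine, glycine, folate and proline enzyme genes (median ratio 2.19), against 50.9% of all genes. Of the eIF2α kinase, phosphatase and sensor genes, 2 of 8 were higher in primary CR1 (median ratio 0.87). These were Eif2s1 and the phosphatase subunit gene Ppp1r15b, and neither is a kinase gene.

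The listed targets of the other ER stress sensors, Atf6 and the Ire1-Xbp1 branch, went the other way in this contrast. Of these 8 ER chaperone genes, 0 were higher in primary CR1 than in primary CR2 (median ratio 0.69), against 50.9% of all genes. Herpud1, an ER gene kept in the list of other effectors, was higher in primary CR1, at 4873, than in primary CR2, at 3683. Between CR and AS tumors 2 of these 8 genes fell and 0 rose, where 10.1% of all genes were called, and the median log2 difference was -0.52, against -0.0004 over all genes. The genes that fell, named after their values were seen, were Sdf2l1, by 2.48 (SE 0.28, adjusted p = 0.00351), and Creld2, by 1.06 (SE 0.27, adjusted p = 0.0403, edgeR's quasi-likelihood test). The call of Sdf2l1 held with each tumor left out, and that of Creld2 held without primary CR1 or without metastatic CR2, with adjusted p up to 0.125 when another tumor was left out. Among the 10 genes, Ddit3 was the only one for which every CR tumor lay below every AS tumor. The phenotypes did not overlap, in either direction, for 17.7% of all genes. Unlike the chaperone genes, Ddit3 was higher in primary CR1, at 320, than in primary CR2, at 179.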

How the data were processed

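RNA-seq of 8 tumors was analysed. The authors mapped paired-end reads to mm10 with Bowtie, kept reads with a unique location and up to 2 mismatches, and deposited raw counts per gene without normalization. The submitters' processing notes name TopHat2 2.0, CASAVA 1.8.2 and GRCm38. The counting tool and its annotation are not given in the sources used here. Coordinates and exon lengths are from GENCODE M21 (mm10), in which 36343 of the listed gene identifiers were found, and promoters are from RefSeq. The number of columns left unused was 0.

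Tests used edgeR 4.0.16 under R 4.3.3 (filterByExpr, TMM factors, quasi-likelihood test, Benjamini-Hochberg adjustment over all genes tested, threshold 0.05). Metastatic and primary tumors were compared with no other term, and CR and AS tumors with tumor type as a term. The interaction and the within-group contrasts came from a model with 1 mean per group of 2 tumors. Each normalized count is the raw count over its tumor's effective library size, times the mean of those sizes. Single genes were also tested by exact permutation of log2(CPM + 1). The fits were tested on simulated data. DESeq2 1.42.0, RLE factors, no normalization factors, other low-count filters, other pseudocounts (0.1 and 10), other covariates, possible pairings and each tumor left out were alternatives; DESeq2 without primary CR1 or primary CR2 was added after the data were seen. Shared sequence was searched in GENCODE transcripts. Figures were drawn with matplotlib 3.10.9.

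The 10 genes, the pathway lists and the marker lists were chosen with earlier results of these data known. The genes named were all 10 members, the pathway genes past the threshold and the 2 with the smallest p in each direction, and the 3 genes most correlated with the mean of the members. In the shallowest tumors Ddit3, Trib3, Chac1 and Sesn2 have the fewest reads and thus the largest counting error, and the number of tumors limits the precision. Some genes of the marker lists are not reported here.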

Additional observations from a re-analysis of the deposited data

Results flagged for a closer look

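For each of the 10 genes the 4 tumors of each tumor type and of each phenotype were examined for a tumor far from the others, by the gap to the nearest tumor as a share of the whole range. Of the 40 groups of 4 examined, 6 exceeded Dixon's critical value for 4 samples. The shares were taken on normalized counts without a log scale, and the groups share tumors and correlated genes. No chance rate can therefore be set beside the 6 of 40. Primary CR1 was the tumor apart in 5 of the 6. Among primary tumors the share was 0.942 for Atf4, 0.900 for Phgdh and 0.908 for Trib3. Among CR tumors it was 0.835 for Phgdh and 0.874 for Sesn2. For Shmt2 the tumor apart was metastatic CR1 among metastatic tumors, with 0.836. The reason for these values was not tested.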

How the results depend on the processing

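Between metastatic and primary tumors, 0 of the 10 genes and 0 pathway genes were called under every alternative, where 0% of all genes were called except with DESeq2 without primary CR1 (1.03%) or without primary CR2 (0.00566%), and the interaction was called for 0 of the 10 genes under every alternative run for it. The labels do not give the pairs, so each of the 4 possible pairings was fitted as a replicate block; no call changed, the median log2 difference of the 10 genes was 0.0033, 0.0406, 0.0033 and 0.0399, and that of Trib3 was 0.0229, 0.0842, 0.0210 and 0.0817. Whether same-numbered tumors deviate together was not examined, because the numbers were given in accession order. Without a low-count filter the log2 difference of metastatic from primary tumors was -0.0095 for Psat1, -0.0271 for Shmt2, -0.0089 for Ddit3 and -0.0128 for Asns; this filter setting moved the median of all genes by over 0.1.

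Between CR and AS tumors, the number of the 10 genes called was 1 with DESeq2 (Trib3; 18.6% of all genes called), 2 without a low-count filter (Asns and Trib3; 9.72%), 0 to 2 with 1 tumor left out (1.9% to 18%), 1 with DESeq2 without primary CR1 (Ddit3; 23.9%) and 4 with DESeq2 without primary CR2 (Asns, Chac1, Phgdh and Trib3; 13.4%). Against these same shares, the number of the 55 pathway genes called was 11 with DESeq2, 3 without normalization factors (6.28% of all genes), 12 without a low-count filter, 2 to 7 with 1 tumor left out, 11 with DESeq2 without primary CR1 and 19 with DESeq2 without primary CR2. Removing any 1 of the 4 AS tumors left 2 pathway genes called, Got1 and Herpud1, and removing metastatic CR1 left 3. The log2 difference of Sesn2 was -0.0447 without normalization factors and -0.0530 without a filter. The cause was not tested.

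With 1 tumor left out at a time, the median log2 difference of the 10 genes ranged from -0.259 to 0.312 for metastatic versus primary and from -0.143, without primary CR1, to 0.542, without primary CR2, for CR versus AS. For metastatic versus primary the range was -0.178 to 0.852 for Asns, -0.161 to 0.103 for Atf4, -0.732 to 0.629 for Chac1, -0.123 to 0.175 for Ddit3, -0.365 to 0.182 for Mthfd2, -0.503 to 0.201 for Phgdh, -0.114 to 0.534 for Psat1, -0.134 to 0.424 for Shmt2 and -0.840 to 1.19 for Trib3. For CR versus AS it was -0.152 to 0.202 for Atf4, -0.213 to 0.530 for Psat1, -0.356 to 0.168 for Sesn2 and -0.135 to 0.554 for Shmt2. DESeq2 without primary CR1 gave, for metastatic versus primary, 0.648 for Chac1, 1.22 for Trib3, 0.112 for Atf4 and 0.214 for Phgdh and, for CR versus AS, -0.126 for Psat1, -0.0509 for Shmt2, -0.265 for Sesn2 and -0.0630 for Atf4. DESeq2 without primary CR2 gave, for metastatic versus primary, -0.111 for Psat1, -0.135 for Shmt2, -0.124 for Ddit3 and -0.147 for Asns.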
